A study of Mus musculus with 6 samples.

Results

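Liver transcripts of ascorbic acid (AA, vitamin C) deficient SMP30/GNL knockout mice were compared with those of wild-type mice, on 4 of the 6 arrays of the series. The members of the comparison were all genes with a probe set of a single gene symbol, each read by its probe set of highest mean, and 14662 of 19550 such genes were bright enough to be tested. The knockouts (SMP30/GNL KO) and the wild type were male mice on a C57BL/6NCrSlc background, and every group ate the AA-free CL-2 diet under a 12-h light/dark cycle. The AA-deficient knockouts received no AA. The wild type drank water without the vitamin. A further pair of arrays came from knockouts given AA in their drinking water with EDTA as stabiliser, the AA-supplemented knockouts, whose values are set beside the others. Each group had 2 arrays (Affymetrix mouse Gene 1.0 ST, total liver RNA). The sources used here do not state age, the length of the AA-free diet, the deleted part of the gene or whether other groups drank EDTA. Nor do the labels say that samples sharing a group were taken from different animals, so p-values here reflect sample-to-sample spread alone, and this spread may be technical.

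SMP30, also called regucalcin and encoded by Rgn, is the gluconolactonase that forms L-gulono-lactone, the substrate of gulonolactone oxidase (Gulo), in the hepatic route to AA. Mice make AA in the liver and need none in the diet, whereas mice without SMP30 need a supply. AA is a cofactor of iron-dependent dioxygenases that hydroxylate collagen, histones and DNA, and it serves as a water-soluble antioxidant. The series asks how loss of AA bears on liver gene expression and lipid metabolism. Because the wild type made its own AA on the same diet, genotype and AA supply differ together in the comparison, and they cannot be told apart within it.

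The deposited values were on a log scale, ran from -0.58 to 2.51 and had array medians between 0.350 and 0.392. The sources used here do not state their log base. They would span 8.48-fold as log2 and 1213-fold as log10, and all folds below are on the log10 reading, while differences are in the deposited log units. Across all probe sets, Pearson's r was 0.973 between the AA-deficient arrays, 0.975 between the wild-type arrays and 0.945 to 0.974 between arrays of different groups. The liver label was checked against hepatocyte markers. Albumin (Alb) lay at the 99.9 percentile of all genes and apolipoprotein A-I (Apoa1) at the 99.95 percentile, with transthyretin (Ttr) at the 98.5 percentile, and 0 of 13 hepatocyte markers tested were called between AA-deficient knockouts and wild type by limma, with 0 at an unadjusted p under 0.05.

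Rgn had values of 0.23 and 0.30 on the AA-deficient arrays against 2.07 and 2.0 in wild type, with 0.34 and 0.14 in AA-supplemented knockouts. It was low on all 4 knockout arrays and high on both wild-type arrays, and the difference from wild type was -1.77 (SE 0.068, 58.9-fold lower, adjusted p = 8.98e-05 in limma). Gulo, the enzyme that completes AA synthesis, had values of 2.05 and 2.03 against 2.04 and 1.95 in wild type (adjusted p = 0.728), and the groups overlapped. Slc23a2, the sodium-dependent vitamin C transporter SVCT2, rose from 0.77 and 0.78 in wild type to 1.11 and 1.13, a 2.20-fold difference (SE 0.040 on the log scale, adjusted p = 0.00777). Its AA-supplemented values of 0.91 and 0.94 lay between those of the other groups. In the list of AA synthesis, transport and recycling, 1 of 13 genes tested was higher and 1 was lower. The background over all genes tested was 3.08% called higher and 1.55% called lower. Rgn and Slc23a2 were these genes.

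Enzymes that use AA as a cofactor gave 3 calls among 28 tested, with a median difference of 0.064 against -0.0034 over all genes tested. The DNA demethylase Tet3 rose from 0.53 on both wild-type arrays to 0.75 and 0.74 (1.64-fold, adjusted p = 0.0283), and the second probe set of Tet3 differed by 0.25. The histone demethylase Kdm2a rose from 0.71 and 0.77 to 0.96 on both arrays (1.65-fold, adjusted p = 0.0356). P3h1, a prolyl 3-hydroxylase of collagen, fell from 0.51 and 0.56 to 0.31 and 0.34 (1.61-fold lower, adjusted p = 0.0429). Of 23 collagen and matrix genes, 1 passed: Col18a1, the precursor of endostatin, was at 1.41 on both AA-deficient arrays and 1.22 on both wild-type arrays (1.57-fold higher, adjusted p = 0.0368). In the list of hypoxia targets, whose regulators include AA-dependent prolyl hydroxylases, 0 of 18 passed with limma (6 at an unadjusted p under 0.05), and Ndrg1 came nearest (difference 0.21, adjusted p = 0.0535).

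Over all genes, 452 were higher and 227 lower than wild type in the AA-deficient knockouts (limma, adjusted p under 0.05), which was 3.08% and 1.55% of those tested. Positive differences made up 48.5% of those tested. These shares are the background for the counts in the lists below. At an unadjusted p under 0.05 there were 1733 higher and 1257 lower genes. The groups did not overlap in 27.6% of the genes tested in the higher direction and 26.9% in the lower direction, so 2 arrays that lay apart from the other 2 were common. The median fold of the calls was 1.81 for rises and 1.82 for falls. More than 2-fold rises numbered 140 and falls 75, and more than 4-fold rises numbered 7 and falls 10. Without either wild-type array 0 genes passed as higher and only Rgn passed as lower, with 1921 and 2133 genes at an unadjusted p under 0.05 in those fits. Of the 97 called genes that the naming rule picked, Rgn kept its call on leaving out any single array, and 28 others lost it only without a wild-type array. In bulk liver, fewer cells of a type and less RNA per cell cannot be told apart.

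**Figure D1:**
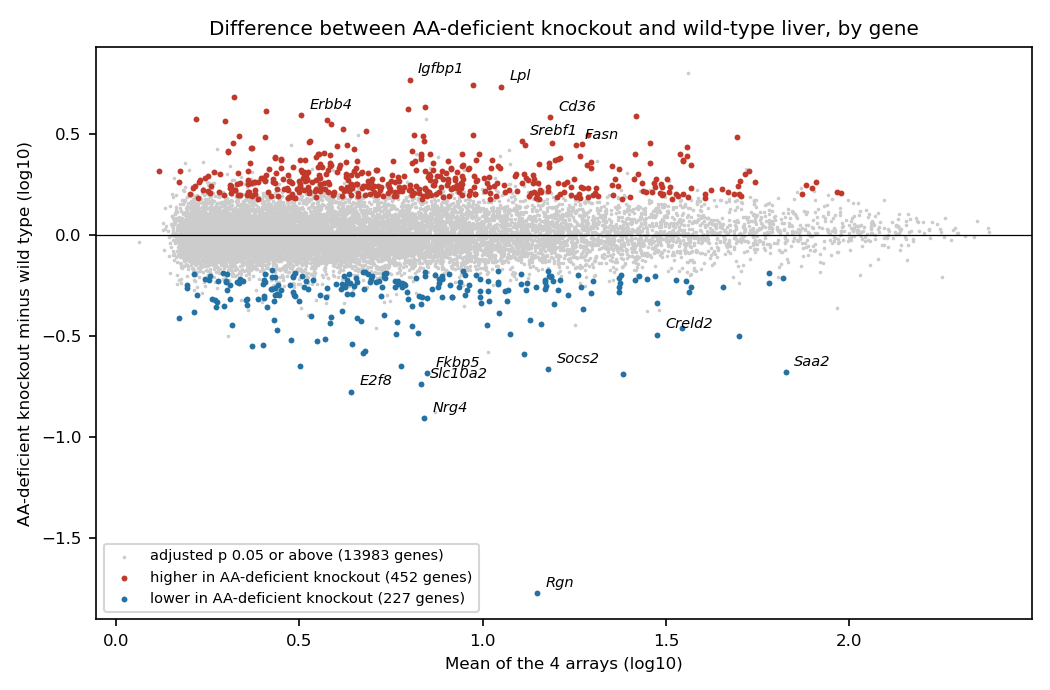
Each point is a gene: the horizontal axis is the mean of the 4 arrays compared and the vertical axis the difference of AA-deficient knockout minus wild type, both in deposited log units read as log10. Red points are the 452 genes called higher, blue points the 227 called lower and grey points the rest, and Rgn stands lowest at -1.77.

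Genes of lipid and fuel handling stood among the largest rises. Igfbp1, the insulin-repressed binding protein of insulin-like growth factors, had values of 0.93 and 1.44 in AA-deficient knockouts against 0.46 and 0.37 in wild type (5.87-fold, adjusted p = 0.0424). Its AA-deficient arrays lay further apart than those of the other large rises, and its call was lost under quantile normalization. Lpl, lipoprotein lipase, rose from 0.59 and 0.78 to 1.35 and 1.48 (5.42-fold, adjusted p = 0.0104). Cd36, a fatty acid translocase, rose from 0.84 and 0.95 to 1.47 and 1.48 (3.81-fold, adjusted p = 0.00478). In AA-supplemented knockouts, Lpl was at 1.0 and 1.22 and Cd36 at 1.27 and 1.19, above both wild-type arrays and below both AA-deficient arrays. Etnppl, a phospholyase of ethanolamine phosphate, rose from 1.02 and 1.07 to 1.56 and 1.51 (3.11-fold, adjusted p = 0.0241).

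Erbb4, a receptor tyrosine kinase for neuregulins, rose from 0.17 and 0.24 to 0.83 and 0.78 (3.92-fold, adjusted p = 0.0115). Sort1, the sorting receptor sortilin, rose from 0.44 and 0.42 to 0.92 and 0.96 (3.25-fold, adjusted p = 0.00327). Its AA-supplemented arrays were both at 0.62, and the knockouts differed from each other (0.32, adjusted p = 0.0405). Themis, known from T cell development, rose from 0.08 and -0.12 to 0.65 and 0.68 (4.79-fold, adjusted p = 0.00521). Its AA-supplemented values of 0.14 and 0.05 were near those of wild type. The means of these groups, 0.093 and -0.018, lay below 0.185, the mean over all arrays needed for testing. Themis was therefore tested only through its AA-deficient values, and its fold is measured from dim values. Of 15 T and NK cell markers with a value, 7 were too dim to be tested, including Cd3d and Cd3g, and Themis alone of the other 8 was called. Over the list without Themis, 14 markers, mean values were 0.146 and 0.199 in AA-deficient knockouts and 0.185 and 0.151 in wild type, so these means overlapped. Egr1, an immediate early transcription factor, rose from 0.31 and 0.40 to 0.98 and 0.78 (3.33-fold, adjusted p = 0.0320), with AA-supplemented values of 1.08 and 0.79. The nuclear RNA Malat1 rose from 0.91 and 1.33 to 1.65 and 1.77 (3.89-fold, adjusted p = 0.0414). Leaving out wild-type replicate 1 took its difference from 0.59 to 0.38, and quantile normalization ended its call. The remaining large rises were Fam13a, Tenm3, Neb, Airn, Lrtm1 and Clec2h, between 3.14-fold and 4.18-fold. Wild-type means of Tenm3 and Airn, 0.104 and 0.017, were also below 0.185.

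**Figure D2:**
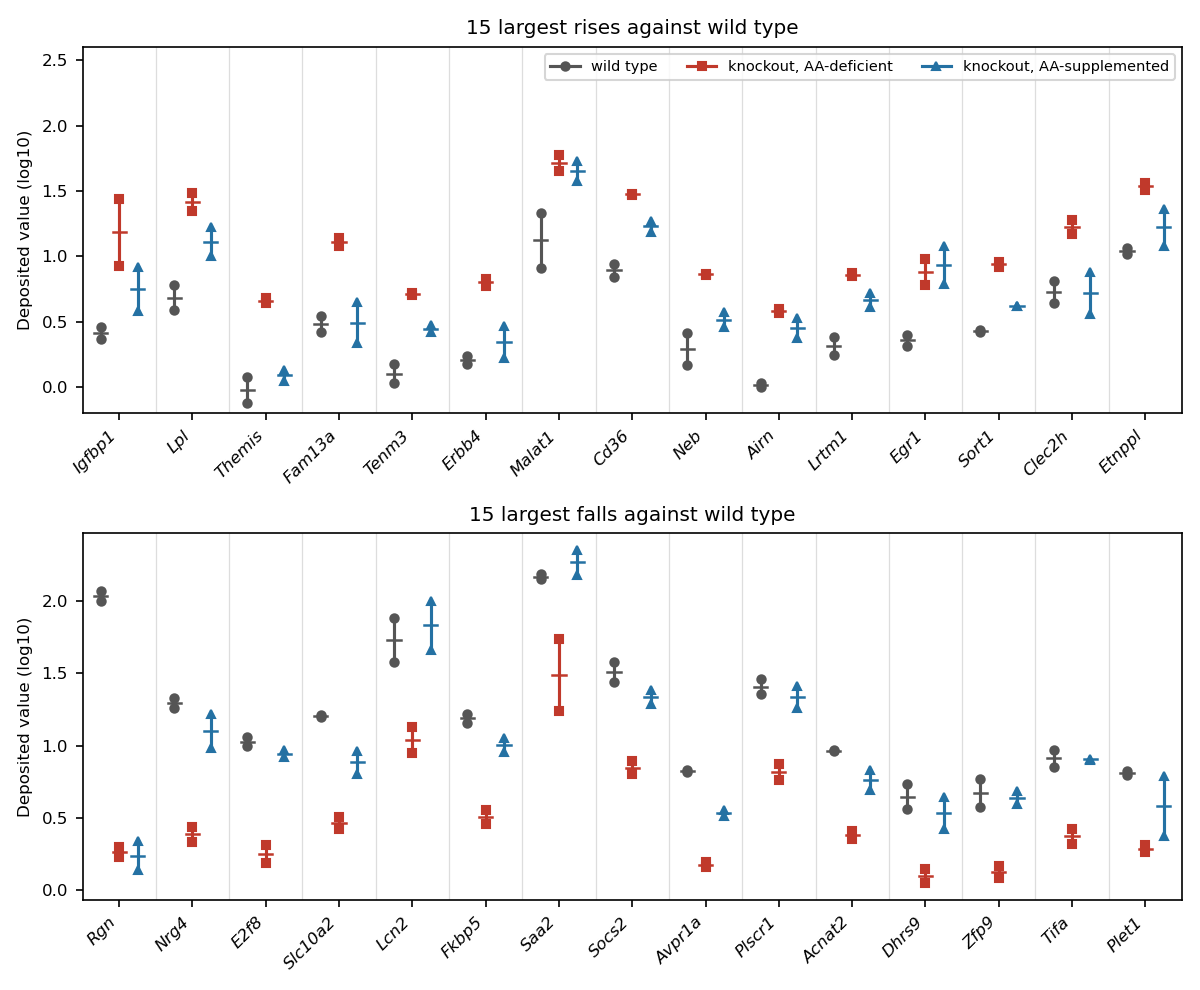
Every array's value for the 15 largest rises (top) and 15 largest falls (bottom) among called genes, in deposited log units read as log10. A line joins the 2 arrays of a group and a tick marks their mean, with wild type in grey, AA-deficient knockouts in red and AA-supplemented knockouts in blue, and for Rgn both knockout groups lie below 0.35.

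After Rgn, the largest fall was in Nrg4, a liver-expressed neuregulin that signals through Erbb4. It had values of 0.44 and 0.34 in AA-deficient knockouts against 1.33 and 1.26 in wild type (difference -0.91, SE 0.077, 8.04-fold lower, adjusted p = 0.00400). AA-supplemented knockouts were at 0.99 and 1.22, and the knockouts differed from each other (-0.72, adjusted p = 0.0263). So the ligand fell while the receptor Erbb4 rose, and 12 other genes of the ErbB list that were tested gave 0 calls by limma. Slc10a2, the sodium-coupled bile acid uptake transporter ASBT, fell from 1.2 and 1.21 to 0.50 and 0.42 (5.47-fold lower, adjusted p = 0.00331), and its AA-supplemented values of 0.80 and 0.97 were intermediate. Avpr1a, the hepatic vasopressin receptor, fell from 0.83 and 0.82 to 0.16 and 0.19 (4.44-fold lower, adjusted p = 0.00219). Its AA-supplemented values of 0.51 and 0.56 also differed from the AA-deficient ones (adjusted p = 0.0302). Acnat2, a peroxisomal acyl-CoA amino acid N-acyltransferase, fell from 0.96 and 0.97 to 0.41 and 0.35 (3.84-fold lower, adjusted p = 0.00478). Tifa, an adaptor of TRAF signalling, was 3.45-fold lower than in wild type, the zinc finger gene Zfp9 3.49-fold, the retinol dehydrogenase Dhrs9 3.54-fold and Plet1 3.35-fold. The call on Plet1 was lost under quantile normalization. In AA-deficient knockouts the means of Avpr1a, Zfp9 and Dhrs9, 0.179, 0.130 and 0.098, lay below the filter of 0.185.

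In the lipogenic programme 4 of 12 regulators were called higher and 0 lower, against 3.08% and 1.55% of all genes tested. Their median difference was 0.116. Srebf1, the sterol-regulated factor that drives fatty acid synthesis, rose from 0.83 and 0.92 to 1.26 and 1.42 (2.91-fold, adjusted p = 0.0185). Pparg, the nuclear receptor of adipogenesis, rose from 0.63 and 0.59 to 1.05 and 1.10 (2.92-fold, adjusted p = 0.00478). Both groups were apart by more than the gap between their arrays. Mlxipl, the carbohydrate response factor ChREBP, rose from 1.25 and 1.30 to 1.60 and 1.55 (2.0-fold, adjusted p = 0.0224), and the coactivator Ppargc1b rose from 0.48 and 0.52 to 0.73 on both arrays (1.70-fold, adjusted p = 0.0302). On AA-supplemented arrays Srebf1 was at 1.01 and 0.86, Pparg at 0.81 and 0.85, and Ppargc1b at 0.67 and 0.61. Mlxipl was at 1.46 and 1.57 on those arrays, which overlapped its AA-deficient values. Insig1, which retains sterol-regulated factors in the endoplasmic reticulum, differed by 0.22 without passing (adjusted p = 0.0656). Adipocyte markers Adipoq and Retn were too dim to be tested, and the means over 8 such markers, leaving out the called Cidec, were 0.739 and 0.730 in AA-deficient knockouts against 0.725 and 0.710 in wild type.

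Among enzymes of fatty acid synthesis and desaturation 17 of 20 genes had positive differences, against 48.5% of all genes tested. Of the 20, 2 passed as higher (3.08% over all genes), and the median was 0.098. Fasn, fatty acid synthase, rose from 1.0 and 1.07 to 1.51 and 1.45 (2.79-fold, adjusted p = 0.00597). Acaca, acetyl-CoA carboxylase, rose from 0.88 and 0.94 to 1.18 and 1.16 (1.82-fold, adjusted p = 0.0203), with a difference of 0.27 on its second probe set. Both enzymes of the committed route were therefore higher. Me1, Acss2, Elovl5 and Acly had differences of 0.31, 0.27, 0.23 and 0.14 with adjusted p of 0.0810, 0.0823, 0.0614 and 0.102, and none of these passed. Gpam, the first acyltransferase of glycerolipid synthesis, rose from 1.32 and 1.29 to 1.59 and 1.54 (1.80-fold, adjusted p = 0.0316) and was the 1 call among 11 genes of triglyceride assembly. In contrast Cidec, a lipid droplet protein, fell from 0.63 and 0.72 to 0.21 and 0.20 (2.93-fold lower, adjusted p = 0.00521). Among 24 genes of fatty acid uptake and lipid droplets, Cd36 and Lpl were the 2 rises and Cidec the 1 fall, and the list's median was -0.021 (-0.030 to -0.0090 without 1 array).

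**Figure D3:**
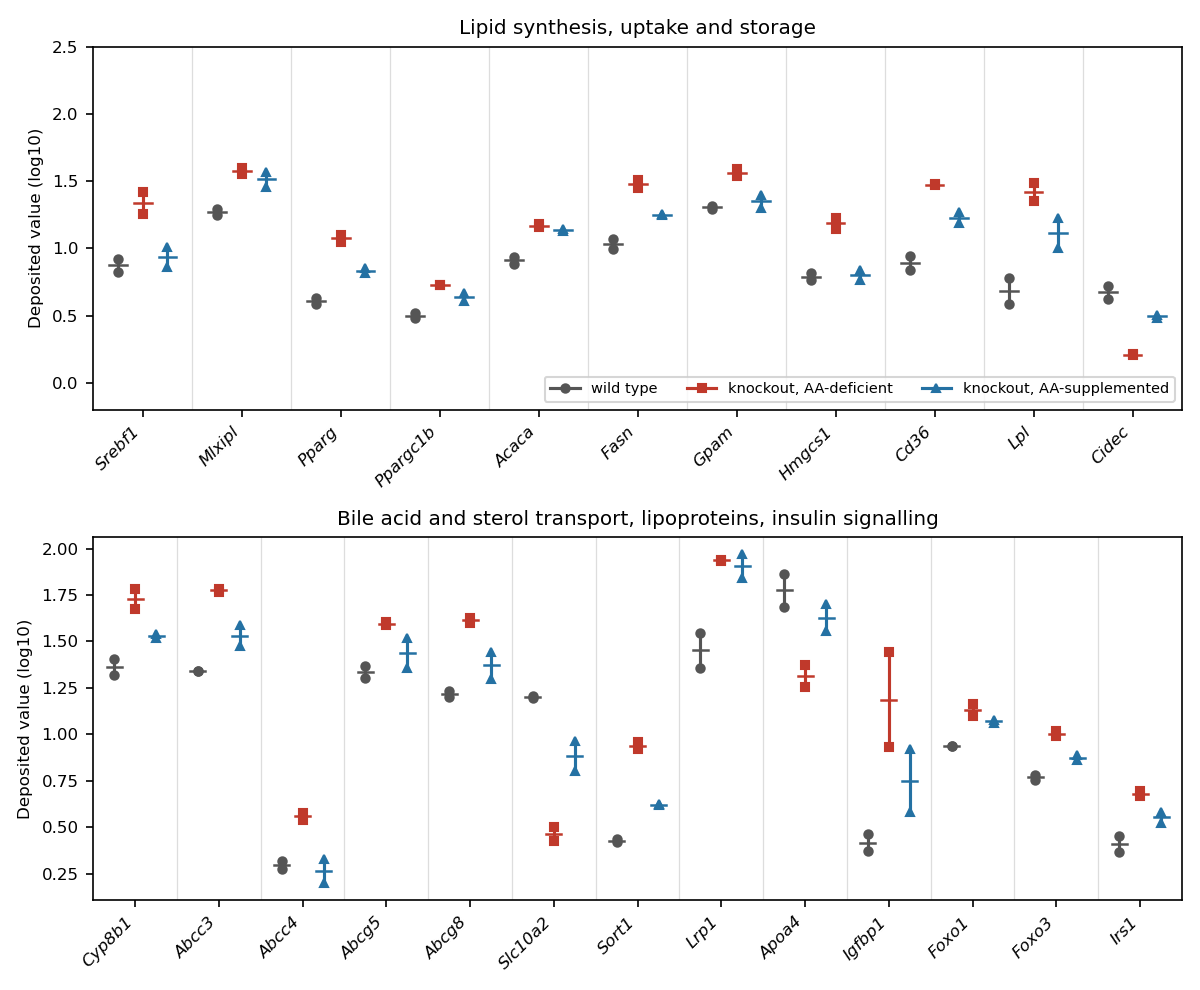
Values of called genes of lipid metabolism (top) and of bile acid and sterol transport, lipoproteins and insulin signalling (bottom) on each array, in deposited log units read as log10. Marks are as in the plot of the largest changes, and the AA-deficient arrays lie above both wild-type arrays for all but Cidec, Slc10a2 and Apoa4.

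In cholesterol synthesis Hmgcs1, the cytosolic HMG-CoA synthase, was the 1 gene called of 18. It rose from 0.77 and 0.81 to 1.23 and 1.15 (2.51-fold, adjusted p = 0.0104), and AA-supplemented knockouts were at 0.84 and 0.77, like wild type. The list's median difference was 0.064 from wild type (0.016 without AA-deficient replicate 1 and 0.102 without replicate 2) and 0.189 from AA-supplemented knockouts, while AA-supplemented knockouts differed from wild type by a median of -0.121. These 3 medians share arrays and are given as values only. Sc5d, Dhcr7 and Fdps had differences from wild type of 0.15, 0.12 and 0.15 without passing (adjusted p = 0.0954, 0.164 and 0.359).

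Promoter windows of 300 bases around the RefSeq start, mostly upstream, were searched on both strands for short motifs known from lipogenic, sterol and clock genes. These motifs were TCACNCCAC (the SRE-1 core of sterol-regulated factors), CACGTG (the E-box of ChREBP and the clock), CCAAT, TTCNNNGAA (STAT) and TTTCGCGC (E2F). Of 19 called members of the lipogenic, fatty acid, triglyceride, cholesterol, clock, growth hormone and cell cycle lists, 16 had a window. SRE-1 occurred in 2 of them, against 1.24% of 32851 windows of all genes. The E-box occurred in 4, against 7.15% of windows, CCAAT in 11 (37.4%), STAT in 1 (8.30%) and E2F in 0 (0.323%). Genes can have several windows, so a share of genes and a share of windows are not the same quantity. A match is only a description of the letters. Of 5 members with SRE-1 or the E-box, windows of 4 are printed, chosen after the matches were seen. The SRE-1 windows shown are those of Hmgcs1 (chr13:119690101-119690400, plus strand) and Mlxipl (chr5:135106641-135106940, plus strand, 1 of 2 windows of the gene), from RefSeq GRCm38.p6. Capitals mark SRE-1 and, for Hmgcs1, also CCAAT boxes on either strand.
Hmgcs1: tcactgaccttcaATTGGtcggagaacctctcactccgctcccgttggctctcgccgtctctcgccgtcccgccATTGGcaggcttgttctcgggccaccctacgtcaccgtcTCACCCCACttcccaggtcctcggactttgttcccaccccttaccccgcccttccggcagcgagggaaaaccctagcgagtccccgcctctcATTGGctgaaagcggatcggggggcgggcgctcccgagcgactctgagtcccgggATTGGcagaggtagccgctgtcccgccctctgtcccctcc
Mlxipl: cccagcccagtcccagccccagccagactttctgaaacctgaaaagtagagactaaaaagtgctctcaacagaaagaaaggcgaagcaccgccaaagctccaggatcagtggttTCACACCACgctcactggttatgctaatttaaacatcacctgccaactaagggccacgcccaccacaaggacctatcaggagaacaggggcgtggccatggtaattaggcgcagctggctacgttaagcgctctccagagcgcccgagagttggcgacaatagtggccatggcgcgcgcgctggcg
The SRE-1 letters start at position 114 of the Hmgcs1 window and 115 of the Mlxipl window. Hmgcs1 also held 4 CCAAT boxes, all on the opposite strand, and this window of Mlxipl held 0.

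Transporters of bile acids and sterols gave 4 rises and 1 fall among 14 genes, against 3.08% and 1.55% of all genes tested. Their median difference was 0.109. Abcc3, a basolateral exporter of bile acid and glucuronide conjugates, rose from 1.34 on both wild-type arrays to 1.78 and 1.77 (2.71-fold, adjusted p = 0.00743). The canalicular sterol half-transporters Abcg8 and Abcg5 rose 2.5-fold and 1.81-fold (adjusted p = 0.0141 and 0.0495). Abcc4 rose from 0.28 and 0.32 to 0.54 and 0.58 (1.83-fold, adjusted p = 0.0389). The calls on Abcg5 and Abcc4 were lost under quantile normalization. Slc10a2, described above, was the fall. Cyp8b1, the sterol 12-alpha-hydroxylase of bile acid synthesis, rose from 1.41 and 1.32 to 1.78 and 1.68 (2.33-fold, adjusted p = 0.0159) and was the 1 call among 19 genes. Cyp7a1, the rate-limiting enzyme, had values of 1.28 and 1.5 against 1.71 and 1.01 in wild type (adjusted p = 0.949), and its groups overlapped.

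Among 18 apolipoproteins and lipoprotein receptors 2 rose and 1 fell. Lrp1, a remnant receptor, rose from 1.36 and 1.55 to 1.93 and 1.94 (3.05-fold, adjusted p = 0.0159), with AA-supplemented values of 1.84 and 1.97, and Sort1 was the other rise. Apoa4 fell from 1.86 and 1.69 to 1.37 and 1.26 (2.89-fold lower, adjusted p = 0.0212). In peroxisomal and PPAR-alpha target genes, 18 of 25 differences were positive and Ehhadh, the peroxisomal bifunctional enzyme, rose from 1.60 and 1.55 to 1.86 and 1.77 (1.76-fold, adjusted p = 0.0332). Cyp4a14, an omega-hydroxylase with near-identical paralogs, had values of 2.10 and 1.82 against 1.42 and 0.89 in wild type but did not pass (adjusted p = 0.0930). In mitochondrial beta-oxidation and ketogenesis 0 of 19 genes passed with limma (4 at an unadjusted p under 0.05), with a median of 0.024 (0.0085 to 0.041 without 1 array), and Acot2 came nearest (difference 0.24, adjusted p = 0.0614).

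Of the insulin, gluconeogenesis and fasting list, 6 members rose and 0 fell among 22 tested, with a median of 0.094. Beside Igfbp1 these were the insulin-regulated factors Foxo3 (1.72-fold, adjusted p = 0.0244) and Foxo1 (1.56-fold, adjusted p = 0.0458), the insulin receptor Insr (1.54-fold, adjusted p = 0.0470), its substrate Irs1 (1.86-fold, adjusted p = 0.0248) and the stress gene Sesn3 (1.97-fold, adjusted p = 0.0300). Foxo3 was at 0.99 and 1.02 against 0.76 and 0.78 in wild type. Foxo1 was at 1.10 and 1.16 against 0.94 on both wild-type arrays. Both transcription factors were thus higher on each AA-deficient array, by less than 2-fold. The second probe set of Irs1 differed by 0.15 and that of Insr by 0.21, and Irs1 was no longer called when probe sets were averaged. All 6 calls of the list were lost without a filter on dim genes, and also with the replicate block. G6pc and Pck1, which encode gluconeogenic enzymes, had differences of 0.21 and 0.033 without passing (adjusted p = 0.296 and 0.841).

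Targets of growth hormone and glucocorticoids included several of the largest falls, but the medians of their lists were 0.047 and -0.0074. Positive differences numbered 8 of 15 and 8 of 19, and the growth hormone median was -0.033 without AA-deficient replicate 1. Socs2, a growth hormone and STAT5 induced feedback inhibitor, fell from 1.44 and 1.58 to 0.89 and 0.80 (4.61-fold lower, adjusted p = 0.00478), and its second probe set differed by -0.52. AA-supplemented knockouts were at 1.38 and 1.29. Onecut1, the hepatocyte factor HNF6, fell from 1.30 and 1.43 to 1.07 and 0.97 (2.20-fold lower, adjusted p = 0.0208), while Stat5b rose from 0.86 and 0.94 to 1.13 and 1.14 (1.73-fold, adjusted p = 0.0296). The list of 15 growth hormone genes thus held 1 rise and 2 falls, and Igf1 (difference 0.051, adjusted p = 0.690) and Cish (-0.19, adjusted p = 0.467) did not pass. Of 24 male-biased liver genes Cyp2u1 rose (1.71-fold, adjusted p = 0.0382) and Scara5 and Capn8 fell (2.54-fold and 2.27-fold lower, adjusted p = 0.00743 and 0.0187). Of 24 female-biased genes 0 rose, and Cyp17a1, Trim24 and Cyp2b10 fell (3.10-fold, 2.18-fold and 3.25-fold lower, adjusted p = 0.00743, 0.0111 and 0.0458). Fkbp5, a co-chaperone induced by glucocorticoids, fell from 1.16 and 1.22 to 0.46 and 0.55 (4.82-fold lower, adjusted p = 0.00327). Of 19 glucocorticoid targets Fkbp5 and Lcn2 fell and Per1 rose. Tsc22d3, another target, had values of 0.92 and 1.15 against 0.96 and 0.90 (adjusted p = 0.476).

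In the circadian clock 3 of 20 genes rose and 1 fell. Per1, a repressor of the clock, rose from 0.41 and 0.42 to 0.68 and 0.72 (1.92-fold, adjusted p = 0.0168). The nuclear receptors Nr1d1 and Rora rose 2.08-fold and 1.66-fold (adjusted p = 0.0337 and 0.0280), and Nr1d1 was at 1.94 and 1.83 against 1.49 and 1.64 in wild type. Ciart, a clock-associated repressor, fell from 1.25 and 1.23 to 0.98 and 0.73 (2.43-fold lower, adjusted p = 0.0385), and its second probe set differed by -0.37. The sources used here do not state the hour at which livers were taken. Per1 and Ciart had opposite signs, and windows of both held E-boxes, so they are shown, with CACGTG and CCAAT in capitals (RefSeq GRCm38.p6, Per1 at chr11:69098699-69098998 on the plus strand, 1 of 2 windows of the gene, and Ciart at chr3:95882179-95882478 on the minus strand).
Per1: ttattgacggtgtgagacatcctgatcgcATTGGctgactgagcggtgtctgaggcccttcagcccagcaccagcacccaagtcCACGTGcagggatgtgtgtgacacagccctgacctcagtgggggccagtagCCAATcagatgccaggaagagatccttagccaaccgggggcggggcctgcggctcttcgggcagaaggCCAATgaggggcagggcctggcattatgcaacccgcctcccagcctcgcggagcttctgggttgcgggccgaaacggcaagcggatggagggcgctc
Ciart: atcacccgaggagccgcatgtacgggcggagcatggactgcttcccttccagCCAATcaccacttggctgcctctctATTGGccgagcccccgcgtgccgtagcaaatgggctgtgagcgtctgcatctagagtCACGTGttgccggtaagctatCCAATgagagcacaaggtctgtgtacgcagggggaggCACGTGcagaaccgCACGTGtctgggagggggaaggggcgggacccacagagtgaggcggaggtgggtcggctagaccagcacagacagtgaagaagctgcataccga
The Per1 window held 1 E-box, at position 85, and 3 CCAAT boxes. The Ciart window held 3 E-boxes, at positions 135, 193 and 207, and 3 CCAAT boxes.

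Calls among genes of protein folding in the endoplasmic reticulum were falls. Of 23 genes of the unfolded protein response 19 had negative differences, against 7549 of 14662 over all genes tested. Of the 23, 4 passed as lower (1.55% over all genes) and 0 as higher, and the median was -0.111. Without a filter on dim genes 0 of the list were called lower, and with the replicate block 2 were. Creld2, a stress-induced secretory factor, fell from 1.78 and 1.67 to 1.33 and 1.13 (3.11-fold lower, adjusted p = 0.0348). Dnajb11, a co-chaperone of BiP, fell from 1.23 and 1.22 to 0.92 and 0.89 (2.11-fold lower, adjusted p = 0.0203). Manf and the transcription factor Xbp1 were 1.84-fold and 1.63-fold lower (adjusted p = 0.0419 and 0.0445). AA-supplemented knockouts had Creld2 values of 1.65 and 1.39 and Dnajb11 values of 1.15 and 1.02, and the knockouts did not differ beyond the threshold for either (adjusted p = 0.338 and 0.268). Hspa5, which encodes BiP, was at 2.05 and 1.92 against 2.17 and 2.09 without passing (adjusted p = 0.185). Of 18 heat shock genes 15 had negative differences. Hsp90aa1 fell from 1.72 and 1.62 to 1.44 and 1.45 (1.70-fold lower, adjusted p = 0.0430), with differences of -0.21 and -0.39 on its other probe sets. The mitochondrial chaperonin Hspe1 was 1.59-fold lower (adjusted p = 0.0484), a call that was lost when probe sets were averaged and when array medians were centred (adjusted p = 0.0509 and 0.0590).

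Proteasome subunits gave 27 negative differences among 31 genes with 0 calls by limma (9 at an unadjusted p under 0.05), and the groups lay apart in the lower direction for 25 of them, against 26.9% of all genes tested. The sizes were small, with a median of -0.054, and Psmd12 (-0.16, adjusted p = 0.0705) came nearest to the threshold. The respiratory chain gave 0 calls by limma among 38 genes (2 at an unadjusted p under 0.05, median -0.020, and -0.041 to -0.0013 without 1 array). The cytosolic ribosome gave 0 among 24 (1 at an unadjusted p under 0.05, median -0.034, and -0.046 to -0.012 without 1 array). In the integrated stress response 1 of 18 fell: Psph, the last enzyme of serine synthesis, was at 0.32 and 0.27 against 0.59 and 0.58 in wild type (1.95-fold lower, adjusted p = 0.0174), and AA-supplemented knockouts were also at 0.32 and 0.27.

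In the Nrf2 and glutathione list 19 of 25 differences were positive, against 48.5% over all genes tested, with a median of 0.119, and 5 genes rose and 1 fell. Nfe2l2, which encodes Nrf2, rose from 1.31 and 1.35 to 1.55 and 1.54 (1.66-fold, adjusted p = 0.0337). Aox1, an aldehyde oxidase, rose from 1.11 on both arrays to 1.47 and 1.48 (2.29-fold, adjusted p = 0.00743), and the epoxide hydrolase Ephx1 rose 1.77-fold (adjusted p = 0.0241). Abcc3 and Abcc4 are the other 2 rises. Srxn1, which reduces oxidised peroxiredoxins, fell from 1.10 and 1.26 to 0.82 and 0.89 (2.12-fold lower, adjusted p = 0.0414). It lay outside the naming rule and was chosen after its values were seen, and its call was lost under quantile normalization, under cyclic loess and without a filter on dim genes (adjusted p = 0.0537, 0.0507 and 0.0884). The classical targets Gclc and Nqo1 had differences of 0.33 and 0.15 (adjusted p = 0.0552 and 0.338). Hmox1 had a difference of 0.050 (adjusted p = 0.562). Of 18 antioxidant enzymes 0 passed with limma (1 at an unadjusted p under 0.05), and Prdx4 came nearest (-0.16, adjusted p = 0.125). Among cytochrome P450 families 1 to 3 and their receptors 25 of 29 differences were positive, and the groups lay apart in the higher direction for 20, against 27.6% of all genes. The xenobiotic receptor Nr1i3 (1.82-fold, adjusted p = 0.0477), Cyp2u1 and Cyp3a25 (1.59-fold, adjusted p = 0.0458) rose, and Cyp2b10, a classical target of that receptor, fell from 0.73 and 0.92 to 0.37 and 0.26. The calls on Nr1i3, Cyp3a25 and Cyp2b10 were lost under quantile normalization.

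Calls among acute phase genes were also falls. Of 29 tested, 22 had negative differences, against 7549 of 14662 over all genes tested. Of the 29, 3 passed as lower (1.55% over all genes) and 0 as higher, and the median was -0.069. Saa2, serum amyloid A, fell from 2.15 and 2.18 to 1.24 and 1.74 (4.78-fold lower, adjusted p = 0.0404). It has a close paralog in Saa1, which differed by -0.58 without passing (adjusted p = 0.0516), and without AA-deficient replicate 1 the difference of Saa2 was -0.43. Lcn2, a siderophore-binding lipocalin, fell from 1.58 and 1.88 to 0.95 and 1.13 (4.89-fold lower, adjusted p = 0.0316). Steap4, a metalloreductase, fell from 1.93 and 1.97 to 1.49 and 1.41 (3.17-fold lower, adjusted p = 0.0203). On AA-supplemented arrays Saa2 was at 2.18 and 2.35 and Lcn2 at 1.66 and 2.0. Their AA-supplemented means, 2.27 and 1.83, were above the wild-type means of 2.17 and 1.73, but the arrays of these groups overlapped for both genes. The calls on Saa2 and Lcn2 were lost with a robust trend in eBayes. Of 13 neutrophil markers 9 were too dim to be tested, including S100a8 and Ly6g, and 0 of the others passed in limma, adjusted or not. Means over the 13 were 0.112 and 0.0931 in AA-deficient knockouts against 0.169 and 0.195 in wild type, and their part in the acute phase falls was not tested.

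Among immune effector lists there were 4 falls. C5ar1, the receptor of complement C5a, was the 1 call of 26 complement genes, at 0.21 and 0.19 against 0.37 and 0.40 in wild type and 0.64 and 0.70 in AA-supplemented knockouts (1.54-fold lower than wild type, adjusted p = 0.0480). Its call was lost under quantile normalization, as was that on Zfp36. Of 27 interferon-stimulated genes Plscr1, Ifi27 and Isg20 fell. Plscr1, a phospholipid scramblase, fell from 1.35 and 1.46 to 0.76 and 0.87 (3.88-fold lower, adjusted p = 0.00743), with -0.62 on its second probe set. Ifi27 and Isg20 were 1.79-fold and 1.86-fold lower (adjusted p = 0.0295 and 0.0476). The list's median was 0.026, turning to -0.036 without AA-deficient replicate 2 and to -0.012 with a filter at the 50th percentile, and 15 of its 27 differences were positive. In coagulation 19 of 22 differences were positive, against 48.5% over all genes tested. F5 rose from 1.60 and 1.62 to 1.87 and 1.88 (1.83-fold, adjusted p = 0.0280). Zfp36, an mRNA-decay factor, rose 1.70-fold (adjusted p = 0.0421) and with Egr1 made 2 calls among 24 immediate early genes.

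Cell cycle genes gave 4 falls and 0 rises among 29 E2F and cell cycle genes. E2f8, a repressor that takes part in hepatocyte polyploidisation, fell from 1.06 and 1.0 to 0.32 and 0.19 (5.94-fold lower, adjusted p = 0.00278). AA-supplemented knockouts were at 0.92 and 0.97 (difference between the knockouts -0.69, adjusted p = 0.0193). Ccne1, Rrm2 and Ccnd1, which encode cyclin E1, a ribonucleotide reductase subunit and cyclin D1, were 2.12-fold, 2.08-fold and 2.02-fold lower (adjusted p = 0.0104, 0.0115 and 0.0142). Ccne1 was at 0.60 on both wild-type arrays and at 0.29 and 0.25 on the AA-deficient ones. The list's median was -0.023 (-0.047 without AA-deficient replicate 2, and -0.111 over the 13 members left by a filter at the 50th percentile). Of 17 senescence and p53 genes 0 passed with limma (2 at an unadjusted p under 0.05).

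Iron genes moved both ways, with 2 rises and 2 falls among 24. The ferrireductase Steap3 rose 1.93-fold (adjusted p = 0.0171) and the iron exporter Slc40a1 (ferroportin) rose 1.61-fold (adjusted p = 0.0418), whereas Steap4 and the ferritin receptor Scara5 fell. Scara5 was at 0.40 and 0.37 against 0.75 and 0.83 in wild type and 0.83 and 0.84 in AA-supplemented knockouts. Of 19 genes of calcium handling, a process linked to regucalcin, Itpr2 was the 1 call, rising from 0.65 and 0.68 to 0.86 and 0.90 (1.66-fold, adjusted p = 0.0320). Its AA-supplemented values of 0.85 and 0.87 were like those of AA-deficient knockouts. Lgr5, a marker of pericentral hepatocytes, rose from 0.36 and 0.27 to 0.66 and 0.64 (2.18-fold, adjusted p = 0.0187) and with Nr1i3 made 2 calls among 15 pericentral and Wnt genes. Hal, histidine ammonia-lyase, rose 1.61-fold (adjusted p = 0.0432) as the 1 call of 23 genes of urea and amino acid metabolism, a call lost under quantile normalization.

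**Figure D4:**
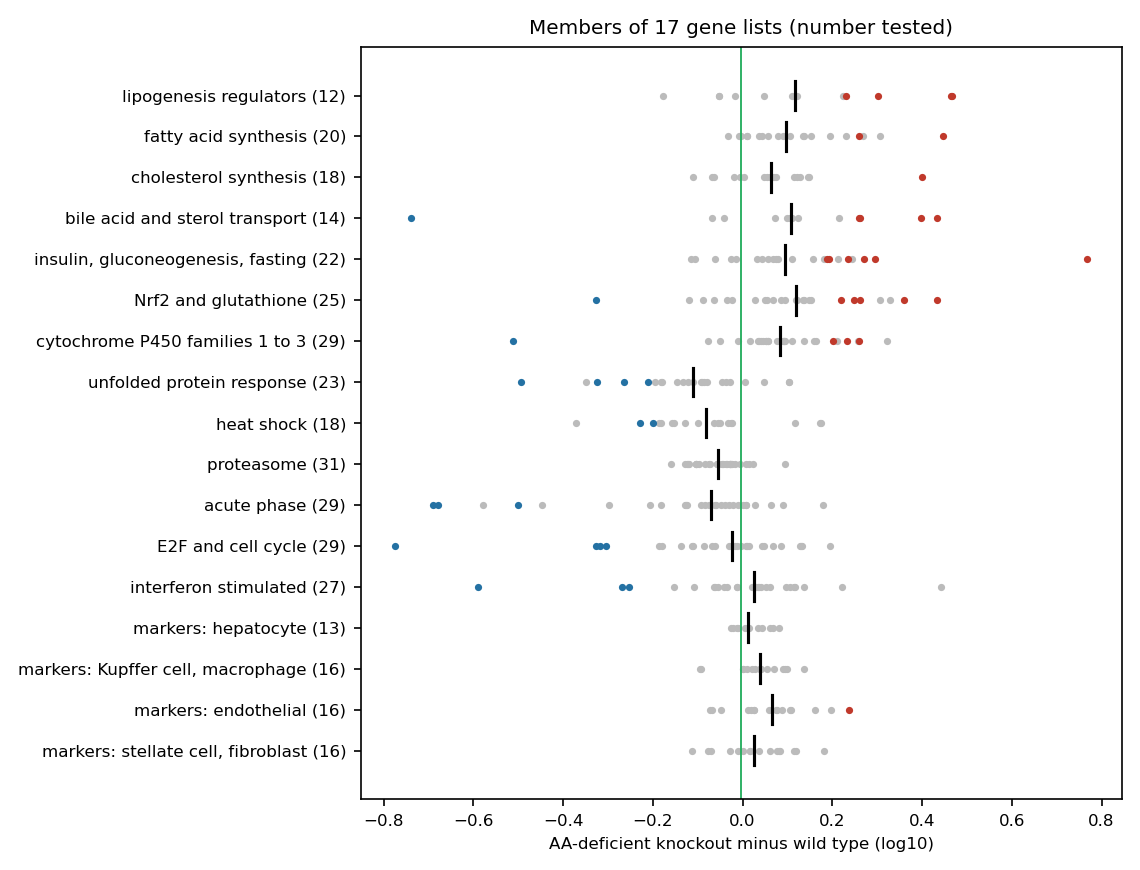
Each point is a tested member of a gene list, placed by its difference of AA-deficient knockout minus wild type in deposited log units read as log10. Red and blue points were called higher and lower, black ticks are list medians, the green line is the median of all genes tested (-0.0034), and the medians of the lists plotted run from -0.111 (unfolded protein response) to 0.119 (Nrf2 and glutathione).

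Few markers of other liver cells were called. Of 16 endothelial markers 13 had positive differences (median 0.066, and 0.037 without AA-deficient replicate 2) and Stab2, a sinusoidal scavenger receptor, rose from 0.81 and 0.90 to 1.09 and 1.11 (1.73-fold, adjusted p = 0.0320). Means over this list were 0.955 and 1.0 in AA-deficient knockouts, 0.910 and 0.920 in wild type, and without Stab2 they were 0.946 and 0.993 against 0.916 and 0.921. Of 16 Kupffer and macrophage markers 14 had positive differences (median 0.040, and -0.022 without AA-deficient replicate 2) and 0 passed in limma (1 at an unadjusted p under 0.05). Means over the 17 such markers with a value, 1 of them too dim to be tested, were 0.826 and 0.915 against 0.835 and 0.849. Lyz2, Csf1r, Adgre1, Clec4f and Timd4 all missed the threshold (adjusted p from 0.223 to 0.988). Stellate cell and fibroblast markers gave 0 calls by limma among 16 (3 at an unadjusted p under 0.05). Of cholangiocyte markers 1 of 7 fell, Onecut1, which hepatocytes also express, and Epcam was too dim to be tested. Of the erythroid list Car2 rose (1.88-fold, adjusted p = 0.0224), while Alas2 had a difference of -0.11 (adjusted p = 0.191). B cell and exocrine pancreas markers gave 0 calls by limma among 5 each, with 0 and 1 at an unadjusted p under 0.05.

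Called rises were longer genes. The median span in the genome, introns included, was 68.4 kb for the 452 rises and 14.3 kb for the 227 falls, against 20.2 kb over all genes tested. In the quintile of genes with the longest spans 236 of 2924 were higher (8.07%) and 28 lower (0.958%), with a median difference of 0.039. In the shortest quintile 36 were higher (1.23%) and 58 lower (1.98%), with a median of -0.020. Across quintiles the share called higher ran from 1.06% to 8.07%. When a smooth trend of the difference on span was removed, 312 higher and 178 lower genes passed, of which 302 and 162 had been called before. Among the genes picked by the naming rule the calls on Kdm2a, P3h1, Ppargc1b, Abcc4, Abcg5, Foxo1, Rora, Insr, Itpr2, Col18a1, Stab2, Manf, Xbp1, Hspe1, Isg20 and C5ar1 were lost, and the other 81 of 97 were kept. RNA quality values were not used here, and their part in the relation to span was not tested.

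**Figure D5:**
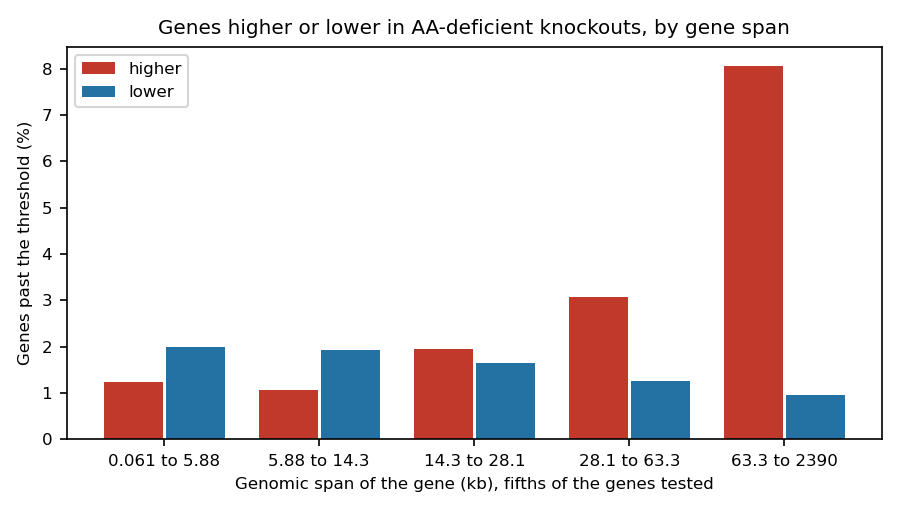
Percent of the genes tested that were called higher (red) or lower (blue) against wild type, in quintiles of genes ordered by genomic span in kb. The red bars range from 1.06% to 8.07% and the longest quintile is highest, whereas the blue bars fall from 1.98% to 0.958%.

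The contrast between both knockout groups is also the test of whether their differences from wild type differ, since they share the wild-type arrays. Over all genes 30 of 14662 passed (0.205%), 6 higher and 24 lower in AA-deficient knockouts. Among the genes that the naming rule picked 15 passed. Sort1, Themis and Hmgcs1 were higher than in AA-supplemented knockouts. Nrg4, E2f8, Fkbp5, Socs2, Avpr1a, Plscr1, Zfp9, Tifa, Onecut1, Scara5, Steap4 and C5ar1 were lower. For the other 82 called genes that the rule picked the difference between the knockouts was not detectable at this size. Lrp1 (0.031, adjusted p = 0.946), Acaca (0.033, adjusted p = 0.887), Itpr2 (0.024, adjusted p = 0.922), Psph (-0.0003, adjusted p = 0.998) and Malat1 (0.061, adjusted p = 0.936) had small differences between the knockouts. Fasn (0.23, adjusted p = 0.132), Pparg (0.24, adjusted p = 0.104), Srebf1 (0.40, adjusted p = 0.104) and Slc10a2 (-0.42, adjusted p = 0.0527) had larger ones that did not pass. A miss of the threshold does not show that the groups were alike.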

How the data were processed

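Per the labels' protocols, liver RNA was isolated with ISOGEN, given a biotin label by the WT Terminal Labeling kit and hybridised to 6 arrays. The deposited table holds values on a log scale that were taken as log10. The sources used here state no software, normalisation or log base. Of 34760 probe sets, 30765 had values, and 21161 of these had 1 gene symbol in the platform annotation. Names and spans came from RefSeq (GRCm38.p6).

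Tests used limma 3.58.1 (R 4.3.3) on genes whose mean reached the 25th percentile, 0.185. All 6 arrays entered 1 fit (residual df 3, prior df 4.89). Two-sided p-values were adjusted by Benjamini-Hochberg over all 14662 genes, with calls at an adjusted p under 0.05. On data simulated for AA-deficient knockouts against wild type, 200 of 14662 genes were changed. Recovery was 97.4% for 4-fold changes, 54.9% for 2-fold and 3.14% for 1.5-fold. Recovery depends on how many genes are changed, so these values need not hold for the deposited data. False calls made up 4.82% of the calls on simulated data. That share was not measured for the calls reported here, and it is not an error rate for them. The number of arrays limits the precision, and no detection call was used, so dim values cannot be told from background.

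The genes, the 54 lists and the tests were chosen with earlier results of these data known. Named were Rgn, Gulo, the 15 largest rises and falls among called genes whose groups did not overlap, and up to 5 called members of each list (or the 2 of smallest p where under 2 passed), with the first 3 markers of each cell type list and further list members given as values. Small RNAs, Rik clones, predicted genes and Olfr or Vmn receptors were counted but not named. Lists are described by counts and medians without a set test. The alternatives tried were other normalisations, filters, variance settings, samples, probe set rules, a replicate block and removal of a trend on gene span.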

Additional observations from a re-analysis of the deposited data

Results flagged for a closer look

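For 15 named genes the AA-deficient and the AA-supplemented knockouts differed from wild type by unequal amounts, as tested by the limma contrast between both knockout groups. The values below are AA-deficient minus AA-supplemented in deposited log units, each with 2 arrays in a group. Themis was higher by 0.57 (adjusted p = 0.0328), Hmgcs1 by 0.39 (adjusted p = 0.0405) and Sort1 by 0.32 (adjusted p = 0.0405). The AA-supplemented mean of Themis, 0.093, lay below the filter of 0.185, as did the AA-deficient means of Zfp9 and Avpr1a, 0.130 and 0.179. The largest negative differences were those of Nrg4 at -0.72 (adjusted p = 0.0263), E2f8 at -0.69 (adjusted p = 0.0193) and Steap4 at -0.62 (adjusted p = 0.0405). Tifa was at -0.53 (adjusted p = 0.0263), Plscr1 at -0.52 (adjusted p = 0.0409), Zfp9 at -0.51 (adjusted p = 0.0479) and Fkbp5 at -0.50 (adjusted p = 0.0263). Socs2 was at -0.49 (adjusted p = 0.0405), C5ar1 at -0.47 (adjusted p = 0.0193) and Scara5 at -0.45 (adjusted p = 0.0263). Onecut1 was at -0.42 (adjusted p = 0.0450) and Avpr1a at -0.36 (adjusted p = 0.0302). In all 15 the AA-deficient arrays lay on the same side of wild type as of the AA-supplemented arrays. Both comparisons use the same AA-deficient arrays, and the 15 were picked for passing in both. The selection thus favours this agreement, which is not separate evidence. C5ar1 was the gene whose AA-supplemented arrays (0.64 and 0.70) lay furthest above wild type (0.37 and 0.40) among those that were lower. Without AA-supplemented replicate 2, or without either wild-type array, 0 of these 15 passed. The wild-type arrays enter this contrast only through the shared estimate of the spread.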

How the results depend on the processing

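The main count was 452 genes higher and 227 lower. Quantile normalization, cyclic loess, centred medians, averaged probe sets and removal of the span trend moved neither count by over 1.5 times. Without a filter on dim genes 117 and 56 passed, with a filter at the 50th percentile 677 and 380, with an eBayes trend 809 and 462, with a robust trend 834 and 478, and with only the 4 arrays compared 659 and 372. Leaving out 1 array gave between 0 and 659 higher and between 1 and 372 lower genes. Without AA-deficient replicate 1 the counts were 90 and 50, and without AA-deficient replicate 2 they were 45 and 43, where rises made up 51.1% of calls against 66.6% in all. Without either wild-type array they were 0 and 1. Samples of 1 number in different groups deviated together at r = 0.358 for AA-deficient knockouts and wild type but at -0.369 and -0.284 for the other pairs of groups, so the numbers were not taken as pairs. With the replicate block 106 higher and 57 lower genes passed, of which 104 and 55 were among the main calls. Of the 97 calls picked by the naming rule, 47 were kept with this block and 44 without a filter on dim genes.

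Between the knockouts 15 genes picked by that rule passed, against 7 with quantile normalization, 23 with centred medians, 6 with cyclic loess, 0 without a filter, 41 with an eBayes trend, 39 with a robust trend, 3 with the replicate block and 0 to 20 without 1 array. None of those 97 calls changed direction under any alternative. Most alternatives could not have changed it. The groups of every call lay apart, so leaving out an array could not reverse a sign. Filters, variance settings and the replicate block left the differences as they were. Only other normalisations, averaged probe sets and removal of the span trend could change a direction. Centred medians ended the calls on P3h1, Abcg5, Foxo1, Hspe1 and Insr, and a robust trend those on Igfbp1, Malat1, Clec2h, Lcn2, Saa2 and Creld2. Quantile normalization moved the list medians of cytosolic ribosome, respiratory chain and mitochondrial beta-oxidation genes to -0.0509, -0.0391 and 0.0104. Named genes that had not passed changed sign on leaving out 1 array, with ranges of -0.0012 to 0.0905 for Gulo, -0.0001 to 0.0267 for Alb, -0.0791 to 0.0291 for Apoa1, -0.0295 to 0.0328 for Clec4f, -0.0169 to 0.1563 for Timd4 and -0.1465 to 0.0060 for Des. The ranges were -0.1461 to 0.0494 for Krt19, -0.4699 to 0.0943 for Cd79a, -0.0495 to 0.0737 for Cd79b and -0.0079 to 0.0534 for Cela2a. Sign changes also came with averaged probe sets (Rpl38, 0.0148), quantile normalization (Alb, -0.0007, and Clec4f, -0.0079) and cyclic loess (Alb, -0.0198, and Clec4f, -0.0053). The causes were not tested. In simulated data of AA-deficient knockouts against wild type, with 200 genes changed, 54.9% of genes changed 2-fold and 3.14% of those changed 1.5-fold were recovered.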

Other observations

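Noncoding RNAs and the X chromosome were described by the same counts. Of 6 nuclear and imprinted noncoding RNAs tested all had positive differences from wild type (median 0.154), and Malat1 and Airn passed. Airn, the antisense transcript of the Igf2r locus, was at 0.57 and 0.59 in AA-deficient knockouts and 0.03 and 0.00 in wild type. This was 3.66-fold above wild type (adjusted p = 0.00521 in limma), and AA-supplemented knockouts were at 0.38 and 0.53. The wild-type mean of Airn, 0.017, lay below the filter of 0.185, so its fold is measured from dim values. Of 440 genes tested on the X chromosome, which carries Rgn, 8 were higher and 8 lower. This was 1.82% in each direction, against 3.08% higher and 1.55% lower over all genes tested. Of the 452 rises and 227 falls, 422 and 218 were annotated as protein coding, against 13936 of the 14662 genes tested. As lncRNA 14 rises and 2 falls were annotated, against 360 of the genes tested. No difference between these classes was tested.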
